A study of Mus musculus with 16 samples.

Results

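The enzymes that modify drugs, dietary compounds and bacterial metabolites were examined in the colon of CSD and VD pups. The set was taken by name: every gene on the array of the cytochrome P450 families Cyp1 to Cyp4, the UDP-glucuronosyltransferases Ugt1 and Ugt2, the cytosolic glutathione transferases Gsta, Gstm, Gstp and Gstt, and the sulfotransferases (Sult). It held 129 of the 36711 genes tested, read by 178 probes, after 4 names of pseudogenes had been left out. All 129 passed the filter on dim probes. Of these, Cyp4x1os is the opposite-strand transcript of Cyp4x1 and not an enzyme.

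Colon RNA came from RjOrl:SWISS mice, an outbred stock, at weaning, with 1 array per pup. The 8 CSD pups (4 females and 4 males) were delivered by hysterectomy near term and raised by foster mothers that had just delivered vaginally, and the 8 VD pups (2 females and 6 males) were born vaginally and exchanged between mothers. The CSD pups came from biological mothers 3 and 4, with 4 pups each, and the VD pups from mothers 5 (5 pups) and 6 (3 males), so that delivery mode differed only between litters. No agent or altered allele was given for either group, and fewer cells of a type cannot be told apart from less RNA per cell in this whole tissue. The colonocyte genes Aqp8 (15.90 to 16.73, log2 intensity) and Krt20 (15.46 to 16.39) and the goblet cell gene Muc2 (12.89 to 14.03) were well above background on 16 of 16 arrays, and the colon markers were thus present. Of 8 small intestine markers, Fabp2 (10.69 to 12.96), Fabp6 (9.38 to 10.95) and Mttp (6.56 to 6.75) were well above background on 16 of 16 arrays, Alpi on 7, and Sis, Lct, Apoa4 and Apoa1 on 0.

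These enzymes work in sequence. Cytochrome P450s (phase I) insert oxygen into a lipid-soluble compound with electrons passed on by P450 oxidoreductase, and the transferases (phase II) then attach glucuronic acid, sulfate or glutathione, after which efflux pumps carry the product out of the cell. Their genes are known as targets of the ligand-activated receptors AhR, PXR and CAR and of the stress factor Nrf2. In the intestine they meet food compounds and the products of the microbiota.

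The array reads each gene through 60-base probes. The stretches below are the opening 30 bases of the probes that carry the main results, 5′ to 3′, as listed in the scanner output; for Cyp2c67 and Cyp2c68 an aligned stretch is given, in which capitals mark the bases that differ. Positions are those of the whole probe on mm9, all on the minus strand except those of Por, Bpnt1 and Cyp2e1.
Sult1b1, chr5:87942561-87942620: atgtgacccacaatctgatacaacctcaag
Sult1b1, chr5:87943760-87943819: gagccaaggtcttttgttaccttagttttc
Por, chr5:136211116-136211175: ggtgcagccccaacatgtgattttgaatga
Bpnt1, chr1:187180535-187180594: tcaaaggaacacatcttaatactgattact
Bpnt1, chr1:187181399-187181458: cagggcacagagtcttaagttactccagaa
Cyp2c67, chr19:39683429-39683488: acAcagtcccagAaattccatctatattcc
Cyp2c68, chr19:39763420-39763479: acCcagtcccagGaattccatctatattcc
Sult1e1, chr5:88005187-88005246: aatggagctctgagccacttccttgtgtct
Cyp3a13, chr5:138335412-138335471: cctgtggaccagaaaccaattcatattgtg
Gsta2, chr9:78178856-78178915: gccacagatactggcctctaattgtttgca
Cyp2e1, chr7:147959585-147959644: agatccagagacatttaaacctgagcattt
Cyp2e1, chr7:147960628-147960687: ttcctcgttcatgagacctgctgcccatca
The families consist of close paralogs. By the transcripts listed for each probe, 28 of the 178 probes matched more than 1 RefSeq gene, and 21 genes were read by such probes alone, so that their values may belong to several genes. The probes of Cyp2c67 and Cyp2c68 differed in 4 of 59 aligned bases, and that of Gsta2 differed from the probe of the neighbouring gene model Gm10639 in 7 of 60 bases.

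In 76 of the 129 genes a probe stood well above background on all arrays of CSD pups, of VD pups or of both. Another 23 genes passed background on some arrays only, and 30 on no array. Among the 23, Cyp2a22 and Cyp2j11 passed on the array of CSD pup 8 alone, where they had no usable value. The glutathione transferases were nearly complete (all genes but Gstt4 on every array of a group), and all 3 Ugt1 genes reached that level. The only probes of Ugt1a10 and Ugt1a6a also match other Ugt1 genes, so that their signal may come from those. In contrast, 2 of 8 Cyp3 genes (Cyp3a11 and Cyp3a13), 4 of 9 Ugt2 genes and 9 of 21 sulfotransferases reached that level. Among the sulfotransferases on no array were Sult2a2 to Sult2a7, which are known for sulfating steroids and bile acids in liver. Cyp1a1, the textbook target of AhR, was not well above background on any of the 16 arrays, with values between 5.96 and 6.18 in CSD pups and between 5.83 and 6.08 in VD pups (log2 intensity). Ugt2b5 was likewise not well above background on any array. Ugt1a1 and Gsta1 were not on the array under these names, although the probe of Ugt1a6a also matches Ugt1a1.

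**Figure D1:**
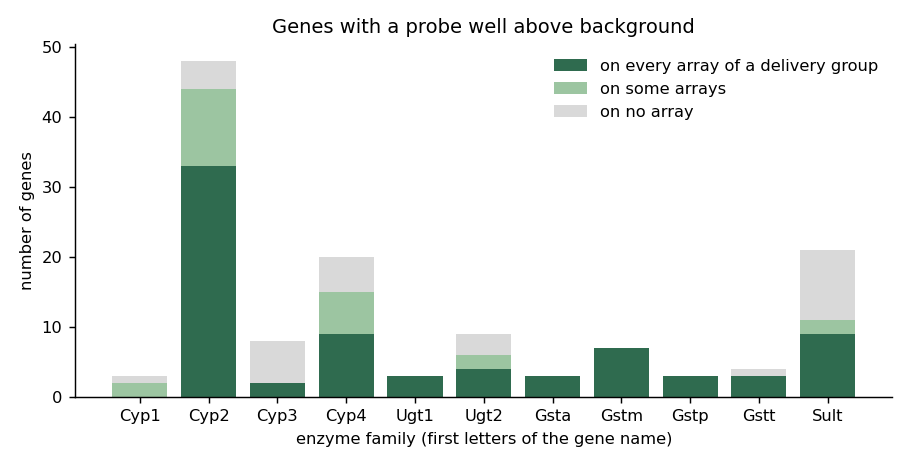
Number of genes (vertical axis) of each enzyme family (horizontal axis) with a probe well above background on all arrays of CSD or VD pups, on some arrays, or on no array. Of 48 Cyp2 genes 33 are in the dark part of the bar, of 21 sulfotransferases 9.

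Between CSD and VD pups, 1 of the 129 genes was called (adjusted p under 0.05, limma with sex as a fixed and the mother as a random effect), against 1.25% of all genes tested (0.706% higher and 0.548% lower in CSD). Direction was evenly split, with 67 genes higher and 62 lower in CSD. Their median log2 fold change was 0.0020, beside 0.0029 over all genes, and their median absolute log2 fold change was 0.058, beside 0.051. Before adjustment, 6 of the 129 genes had a p under 0.05 (Sult1b1, Sult1d1, Ugt1a6b, Cyp4v3, Cyp4f18 and Gstt1), which was 4.65% of them, whereas the share over all genes was 14.5%. Among the 76 enzyme genes well above background on every array of a delivery group, 41 were higher and 35 lower. Of these 76, 7.89% had an unadjusted p under 0.05, against 21.4% of all genes at that level. Their median absolute log2 fold change was 0.076, beside 0.067. In 0 of the 129 genes did the 8 CSD pups lie apart from the 8 VD pups, against 0.496% of all genes. These shares were not tested against each other.

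**Figure D2:**
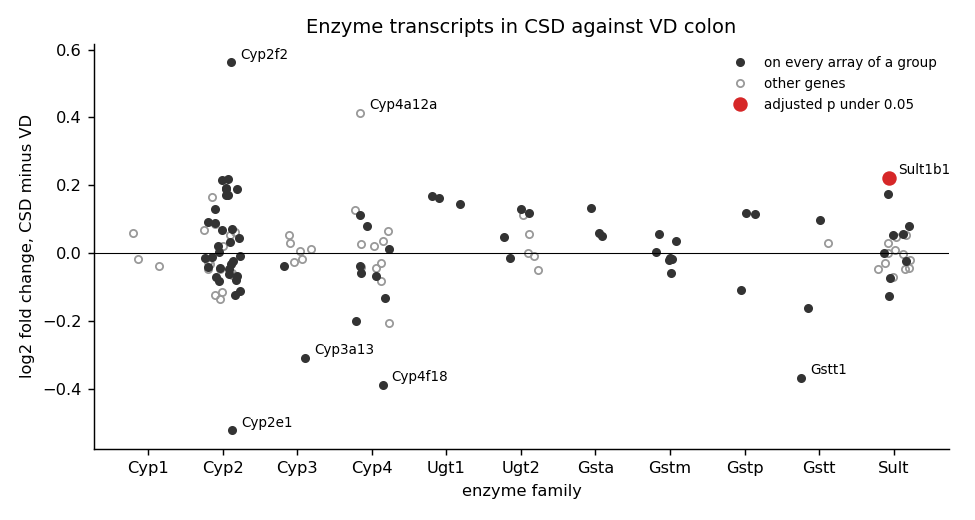
Log2 fold change of each enzyme gene between CSD and VD pups (vertical axis, adjusted for sex) by family (horizontal axis), with filled points for genes well above background on every array of a delivery group. Only Sult1b1, at 0.22, had an adjusted p under 0.05, and the wide values of Cyp2f2 (0.56) and Cyp2e1 (-0.52) did not.

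The called gene was Sult1b1, a cytosolic sulfotransferase of the intestine and liver that is known for sulfating phenols and thyroid hormones. Its log2 intensity ran from 11.87 through a median of 11.96 to 12.11 in CSD pups, and from 11.65 through 11.72 to 11.88 in VD pups. Of the 8 CSD pups, 6 lay above every VD pup, so that the groups overlapped slightly. Sult1b1 rose 1.17-fold in CSD pups (log2 fold change 0.22, standard error (SE) 0.05, adjusted p = 0.0353 by limma), and p was 0.000466 when pups were permuted between the groups (exact, two-sided, ignoring litter and sex). Both probes shown above moved in the same direction, by 0.20 and 0.24. On each slide alone the log2 fold change was 0.25 and 0.19. The call was lost with normexp offsets of 16 and 0, with the signal processed by the scanner software under both scalings tried, and with the deposited matrix, the sign staying positive in each. It was also lost on either slide alone, in males alone, with litter means and without the litter of mother 3, 4 or 5. Without the litter of mother 5 the log2 fold change fell to 0.11 (adjusted p = 0.491 by limma). Leaving out single pups ended the call for 9 of the 16 pups.

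Markers of cell types were compared in the same pups, and 0 of them were called. All 10 colonocyte markers were higher in CSD pups (median log2 fold change 0.17, smallest adjusted p = 0.113 by limma), and their mean level ran from 13.01 to 13.49 in CSD and from 12.88 to 13.29 in VD pups. Of 7 goblet cell markers 6 were higher (median 0.18, smallest adjusted p = 0.0722 by limma), and of 5 crypt base and proliferation markers 2 were higher and 3 lower (median -0.05). The small intestine markers were split 4 to 4, and of 4 Paneth cell markers 3 were higher (median 0.22). All 8 leukocyte markers (median -0.25, smallest adjusted p = 0.0993 by limma) and all 5 endothelial markers (median -0.15, smallest adjusted p = 0.244 by limma) were lower, as were 5 of 6 smooth muscle markers (median -0.12) and all 4 adipocyte markers (median -0.21). Of 7 enteric neuron and glia markers 5 were higher and 2 lower (median 0.03), and of 5 fibroblast markers 2 were higher and 3 lower (median -0.07). Hepatocyte markers were split 4 higher to 2 lower (median 0.04), and exocrine pancreas markers 2 higher to 3 lower (median -0.015). The part of cell composition in the Sult1b1 result was not tested.

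The other sulfotransferases did not pass the test. Sult1d1, which acts on catecholamines and whose probes (chr5:87984658-87984717 and chr5:87985008-87985067) lie in the same gene cluster, had values from 11.23 through 11.43 to 11.73 in CSD and from 11.14 through 11.18 to 11.42 in VD pups. Its groups overlapped, and the difference was 0.17 (SE 0.06, adjusted p = 0.203 by limma). Sult1a1, the main phenol sulfotransferase, had a median of 13.92 in CSD and 14.02 in VD pups, and Sult1c2 of 11.76 and 11.88, both well within the spread of either group. Of all 21 sulfotransferase genes 11 were higher in CSD and 10 in VD pups. However, 10 of the 21 were well above background on no array, so that the signs of those cannot be read.

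Of the glucuronosyltransferases 0 were called. All 3 Ugt1 genes were higher in CSD pups (median log2 fold change 0.16), of which Ugt1a6b alone had an unadjusted p under 0.05. Mouse Ugt1 transcripts are known to join their own opening exon to shared later exons, and 3 of the 5 probes of the family matched several of its genes, so that the 3 values are not independent. Ugt1a6b, which conjugates phenols, lay between 11.64 and 11.92 in CSD (median 11.73) and between 11.40 and 11.74 in VD pups (median 11.61). Its log2 fold change was 0.16 (SE 0.06, adjusted p = 0.185 by limma), and its 3 probes differed by 0.16, 0.18 and 0.19. The brightest of them (means 15.26 in CSD and 15.09 in VD pups) also matches Ugt1a10, Ugt1a6a and Ugt1a7c. The dimmest (7.59 and 7.39) matches Ugt1a6b alone. The averaged level and change can therefore not be assigned to Ugt1a6b alone. Of the 9 Ugt2 genes 6 were higher and 3 lower, but 3 of the 9 were well above background on no array. Ugt2a1 had a log2 fold change of 0.13 (adjusted p = 0.359 by limma), while Ugt2b34, with medians of 15.07 in CSD and 14.90 in VD pups, had an adjusted p of 0.369.

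Among glutathione transferases the widest difference was in Gstt1, a theta-class enzyme that handles small halogenated molecules. It ran from 12.11 through 12.36 to 12.76 in CSD and from 12.26 through 12.87 to 13.11 in VD pups. Only 2 CSD pups lay below every VD pup, and the log2 fold change of -0.37 (SE 0.13) had an adjusted p of 0.178 by limma. Over 38 alternative settings the value ran from -0.51 to -0.068. Gstt1 was called in 1 of them, without the litter of mother 6 (adjusted p = 0.0089 by limma). In the fit adjusted for sex all 3 Gsta genes had positive values, with a median of 0.06, but the plain group means were lower in CSD pups for Gsta3 (9.48 against 9.49) and Gsta4 (11.43 against 11.44). Gstm2 (-0.06, adjusted p = 0.603) and Gstp2 (0.12, adjusted p = 0.353), which had the smallest p of their families, were close in both groups. Gstp1 had medians of 13.07 in CSD and 13.08 in VD pups. Gstm1 had medians of 14.19 in CSD and 14.24 in VD pups, averaged over 1 probe on chromosome 3, where its means were 13.59 and 13.60, and 1 that the scanner output places on chromosome 5, where they were 14.83 and 14.80.

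Of the P450s 0 were called, and only the Cyp4v3 and Cyp4f18 named above had an unadjusted p under 0.05. Cyp4f18, which oxidises the leukotriene LTB4 and is known from neutrophils, lay between 8.29 and 8.86 in CSD (median 8.49) and between 8.47 and 9.23 in VD pups (median 9.04), with 4 CSD pups below every VD pup. Its log2 fold change was -0.39 (SE 0.12, adjusted p = 0.141 by limma), and the leukocyte markers were lower in the same pups, as given above; their part was not tested. Cyp4v3, a fatty acid omega-hydroxylase, lay below every VD pup in 7 of 8 CSD pups, yet the remaining CSD pup reached 10.28, inside the VD range of 10.07 to 10.33 (log2 fold change -0.20, SE 0.06, adjusted p = 0.125 by limma). Cyp2f2, known for activating naphthalene in the airway, had the largest positive value, 0.56 (SE 0.33, adjusted p = 0.470 by limma), and its litter means were 11.13 for mother 4 and 10.13, 10.23 and 9.90 for mothers 3, 5 and 6. The litters of mothers 4 and 3 overlapped (10.33 to 11.61 and 9.62 to 10.92, adjusted p = 0.506 by limma), and without the litter of mother 4 the value was -0.025.

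Within the Cyp2c subfamily, Cyp2c29, Cyp2c40, Cyp2c67, Cyp2c68 and Cyp2c69, which were picked after their values were seen, were highest in CSD pup 2 and lowest in VD pup 9 or 10. Cyp2c54 (7.51, well above background on that array only) and Cyp2c70 (7.69) were highest in CSD pup 2 as well, while others had their highest value elsewhere, such as Cyp2c38 in CSD pup 8, Cyp2c65 and Cyp2c66 in CSD pup 6 and Cyp2c50 in VD pup 11. The probes of Cyp2c29 and Cyp2c67 matched 1 gene each, whereas that of Cyp2c69 also matches the transcripts of Cyp2c40, Cyp2c67 and Cyp2c68, and those of Cyp2c40 and Cyp2c68 match others of the group too, so that these 3 values cannot be assigned to single genes. Cyp2c40 had a log2 fold change of 0.22 (SE 0.11, adjusted p = 0.368 by limma), Cyp2c69 of 0.22 and Cyp2c68 of 0.19. On slide 1 the values of Cyp2c69 and Cyp2c68 were 0.46 and 0.40, and on slide 2 they were -0.035 and -0.020, and without VD pup 5 they were 0.13 and 0.11, as they were without CSD pup 7. Cyp2c55, a colon P450 of the same subfamily, was highest in VD pup 11 and had medians of 12.20 in CSD and 12.15 in VD pups. In the Cyp3 family, Cyp3a41a had the smallest p but was not well above background on any array. Cyp3a11, the classic PXR target, lay between 6.77 and 7.14 in CSD and between 6.85 and 7.04 in VD pups. Its only probe also matches Cyp3a41a, Cyp3a41b and Cyp3a44, so that this signal cannot be assigned to Cyp3a11 alone.

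The genes around these enzymes were examined in lists of regulators, Nrf2 targets, partner enzymes, cofactor supply and transporters. In the list of other phase I enzymes and P450 partners, 1 of 26 genes was called, lower in CSD pups, where 0.548% of all genes were. This was Por, the P450 oxidoreductase through which the microsomal P450s receive their electrons. Its log2 intensity ran from 13.24 through 13.34 to 13.46 in CSD and from 13.60 through 13.67 to 13.76 in VD pups. All 8 CSD pups lay below all 8 VD pups, and both CSD litters (13.37 and 13.30) lay below both VD litters (13.70 and 13.64). Por fell to 0.793 of the VD level (log2 fold change -0.34, SE 0.04, adjusted p = 0.0017 by limma), and the exact two-sided permutation p was 0.000155, the smallest that 12870 assignments can give. This test, here and for Bpnt1 and Abcc1 below, treats pups as independent and ignores litter and sex, although delivery mode differed only between litters. The log2 fold change was -0.37 and -0.29 on slide 1 and slide 2. The call held without each of the 16 pups, and it was lost on either slide alone, in males alone, with litter means as samples, with 75th percentile scaling and without the litter of mother 5 (adjusted p between 0.0503 and 0.263 by limma).

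In the list of other phase II enzymes and cofactor supply, 1 of 22 genes was called, higher in CSD pups, against 0.706% of all genes. Bpnt1 encodes the phosphatase that removes PAP, the product left when a sulfotransferase has used its cofactor PAPS. It ran from 10.48 through 10.62 to 10.71 in CSD and from 10.06 through 10.26 to 10.31 in VD pups, without overlap. Bpnt1 rose 1.30-fold (log2 fold change 0.38, SE 0.05, adjusted p = 0.0021 by limma, exact two-sided permutation p = 0.000155), with differences of 0.47 and 0.26 at its probes. The slides gave 0.45 and 0.31. The call held without each pup in turn, and it was lost on either slide alone, in males alone, with litter means and without the litter of mother 5 (adjusted p between 0.0889 and 0.264 by limma). The PAPS synthase Papss2 of the same list had medians of 11.56 in CSD and 11.42 in VD pups (adjusted p = 0.552 by limma).

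**Figure D3:**
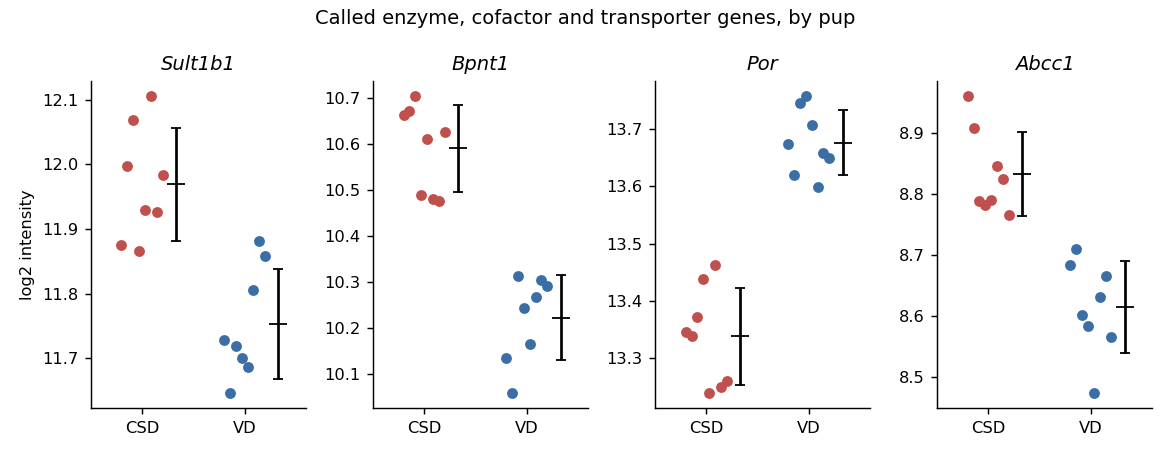
Log2 intensity (vertical axis, not starting at 0) of Sult1b1, Bpnt1, Por and Abcc1 in each of the 8 CSD and 8 VD pups (points), with the group mean and SD beside them. In Bpnt1, Por and Abcc1 the groups do not overlap, and in Sult1b1 2 CSD pups lie below the highest VD pup.

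Among 19 efflux and uptake transporters 1 was called, again higher in CSD pups, against the same 0.706% of all genes. Abcc1 (MRP1), which exports glutathione and glucuronide conjugates, ran from 8.76 through 8.81 to 8.96 in CSD and from 8.47 through 8.62 to 8.71 in VD pups. The groups did not overlap, and Abcc1 rose 1.14-fold (log2 fold change 0.19, SE 0.03, adjusted p = 0.0129 by limma, exact two-sided permutation p = 0.000155). The slides gave 0.16 and 0.23. The call held without each pup in turn, and it was lost on either slide alone, in males alone, with litter means, without the litter of mother 3 or 5, and with normexp offset 0, 75th percentile scaling, the brightest probe or the deposited matrix (adjusted p between 0.0530 and 0.568 by limma). Abcb1a (P-glycoprotein) had medians of 9.70 in CSD and 9.68 in VD pups. The shifts of the colonocyte and leukocyte markers given for Sult1b1 belong to the same pups, and their part in the values of Por, Bpnt1 and Abcc1 was not tested.

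The regulators and the Nrf2 targets held 0 calls in limma, against 1.25% of all genes. An unadjusted p under 0.05 was found for 3 of 14 regulators and 2 of 12 Nrf2 targets, against 14.5% of all genes. Of 14 regulators 9 were higher in CSD pups, with a smallest adjusted p of 0.162 for Nr1h4, the bile acid receptor FXR (log2 fold change 0.22, SE 0.07). Ahr, Nr1i2 (PXR) and Nr1i3 (CAR) themselves had adjusted p-values of 0.556, 0.807 and 0.296. Of 12 Nrf2 targets 5 were higher and 7 lower. Txnrd1, a thioredoxin reductase, was at 0.25 (adjusted p = 0.138 by limma). Gclc, which carries out the rate-limiting step of glutathione synthesis, was at 0.19 (adjusted p = 0.192 by limma), and neither passed the test. Without 1 of the pups Txnrd1 reached an adjusted p of 0.0418 by limma, and with the brightest probe it turned to -0.017. Gclc reached an adjusted p of 0.0486 by limma in 1 of 38 settings.

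Sex was compared over 6 females and 10 males, since drug-metabolising enzymes are known to differ between the sexes in mouse liver. In limma 0 of the 129 genes were called, against 0.0599% of all genes, and 14 had an unadjusted p under 0.05, against a share of 6.45% over all genes. The smallest p belonged to Sult1e1, the oestrogen sulfotransferase. It was not well above background in any of the 6 females, whose values lay between 5.96 and 6.03, and it was well above background in 9 of the 10 males, with values from 6.36 through a median of 7.30 to 8.60. Every male lay above every female, in both delivery groups. With the females set to the lowest signal that counts as above background on their arrays, the mean of the 10 males was at least 2.22-fold higher. This bound is for the mean and does not hold for each male. The gene was chosen after its values were seen, and the litter of mother 6 held males only. The adjusted p by limma was 0.348, whereas it was 0.0136 with the intensities corrected by the scanner software and 0.0436 with the deposited matrix. The cause of this difference was not tested. Since the females were not above background, only the bound above is given as a size. Males differed widely among themselves, and the males of mother 4 (8.31 and 8.60) lay far above those of mother 3 (6.36 and 6.61). In the delivery by sex interaction 0 of the 129 genes were called, against 0.00272% of all genes, and 7 had an unadjusted p under 0.05, against 4.72% over all genes.

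Litters of the same delivery mode also differed. Between mothers 3 and 4, both CSD, 1 of the 129 genes was called, against 0.0872% of all genes. Cyp3a13, a P450 of the intestine and liver, lay between 10.52 and 10.64 in the 4 pups of mother 3 and between 11.87 and 12.29 in the 4 pups of mother 4. The litters did not overlap, and the log2 fold change of 1.51 (SE 0.23, adjusted p = 0.0243 by limma) compares with -0.31 (SE 0.35, adjusted p = 0.754) between the delivery groups. Leaving out single pups moved the latter between -0.49 and -0.16, and without the litter of mother 3 it turned to 0.47. The litter call was lost without 7 of the 16 pups in turn, with the signal processed by the scanner software and in males alone (adjusted p up to 0.169 by limma).

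Between mothers 5 and 6, both VD, 2 of the 129 genes were called, against 0.874% of all genes. Gsta2, an alpha-class glutathione transferase, lay between 10.05 and 10.46 in the 5 pups of mother 5 and at 10.75, 12.03 and 12.12 in the 3 pups of mother 6 (log2 fold change 1.34, SE 0.27, adjusted p = 0.0369 by limma). Cyp2d13 lay between 8.69 and 9.04 in the litter of mother 5 and at 9.00, 9.08 and 9.27 in that of mother 6 (log2 fold change 0.39, SE 0.08, adjusted p = 0.0487 by limma). Leaving out single pups ended the call of Gsta2 in 11 of 16 cases and that of Cyp2d13 in 13. Over all 21 settings the calls were lost in 13 and 17. Both were lost with the signal processed by the scanner software and in males alone.

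**Figure D4:**
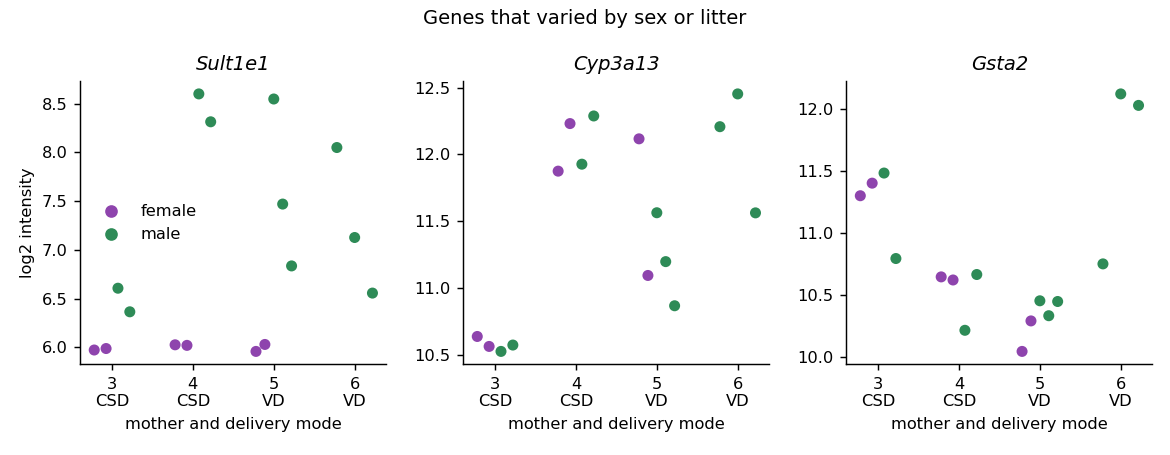
Log2 intensity (vertical axes, not starting at 0) of Sult1e1, Cyp3a13 and Gsta2 in each pup (points, coloured by sex), arranged by mother (horizontal axis). Sult1e1 stays between 5.96 and 6.03 in the 6 females, and Cyp3a13 stays between 10.52 and 10.64 in the litter of mother 3.

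The widest spread among the 129 genes was in Cyp2e1, an ethanol- and ketone-oxidising P450 that is abundant in liver and is also expressed in adipocytes. Its SD over the 16 pups was 1.46, and its values ran from 6.43 (CSD pup 1) through 9.21 to 11.96 in CSD and from 9.09 through 9.80 to 12.30 (VD pup 6) in VD pups. The groups overlapped widely (log2 fold change -0.52, SE 0.67, adjusted p = 0.785 by limma). Leaving out single pups moved the value between -0.93 (without CSD pup 7) and -0.15 (without VD pup 5), and in males alone it turned to 0.23. Adipocyte markers differed in their spread over the same pups. Adipoq (adiponectin) ran from 6.56 to 11.62, lowest in CSD pup 1 and highest in VD pup 6. Cidec, a lipid droplet protein, ran from 7.15 to 12.58 with the same extremes. Lep, in contrast, stayed between 7.85 (CSD pup 9) and 8.12 (VD pup 5). The mean of the 4 adipocyte markers Adipoq, Plin1, Lep and Cidec, all of them well above background on every array of a group, lay between 6.98 and 9.88 in CSD and between 8.27 and 9.94 in VD pups.

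Across the 16 pups, Cyp2e1 followed this mean with Pearson's r = 0.98 and Spearman's rho = 0.88. The permutation p was 1e-05 for each, the smallest that 100000 permutations can give, and 0.00015 after adjustment over the 15 genes related to the adipocyte mean in the same way. Without the 2 pups farthest from the median, CSD pup 1 and VD pup 6, r was 0.95. It was 0.97 within CSD, 0.98 within VD, 0.997 on slide 1 and 0.92 on slide 2. Cyp2s1, an extrahepatic P450 of epithelia, went the other way (r = -0.69, adjusted permutation p = 0.0184; rho = -0.62, adjusted permutation p = 0.0874), and r was -0.70 without these pups. Of the 2 probes of Cyp2s1, 1 was not well above background on any array, and the level averaged over both lay within the narrow range of 9.64 to 9.96. Cyp4b1 had r = 0.71 (adjusted permutation p = 0.0184) but 0.28 without them, so that its relation rested on these pups. The part of fat tissue in any of these values was not tested.

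**Figure D5:**
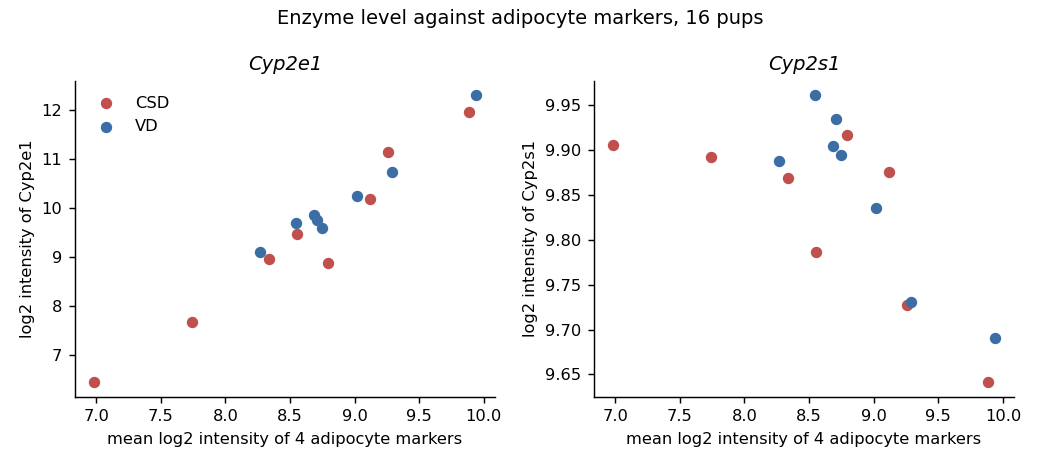
Log2 intensity of Cyp2e1 and of Cyp2s1 (vertical axes) against the mean log2 intensity of 4 adipocyte markers (horizontal axes) in 8 CSD and 8 VD pups, neither axis starting at 0. Cyp2e1 climbs with the markers from 6.43 to 11.96 in CSD and from 9.09 to 12.30 in VD pups, while Cyp2s1 declines.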

How the data were processed

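The authors deposited the scanner output of 16 1-colour Agilent arrays (mean and median background intensity of each of 62976 spots, extracted with Feature Extraction 12.0.3.2, mm9) and a log2 matrix (27036 genes), made by the authors with limma 3.38 (correction, quantile normalization, filter on dim probes, averaging by gene). The matrix held 91 of the 129 genes and served as an alternative.

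Here, mean intensities were corrected with normexp (offset 50) in limma 3.58.1 (R 4.3.3). Control and outlier spots were left out, log2 values were quantile normalized, replicate spots were averaged, 56366 of 56605 probes passed the filter (above the lowest 5% of the array, on 4 arrays or more), and the mean over a gene's probes gave 36711 genes. Cyp2a22 and Cyp2j11 had no value on CSD pup 8. Between 58.7% and 64.9% of spots were well above background per array, and 0 were saturated. Each of the 2 slides held 4 CSD and 4 VD pups.

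Genes were fitted with lmFit and eBayes, with fixed terms for delivery mode and sex and a random term for the mother (duplicateCorrelation, consensus 0.015), and p-values were adjusted by Benjamini-Hochberg over all genes. Litters of the same delivery mode were compared with litter and sex as fixed effects. The share of false calls by this fit was not tested for 2 litters on each side and litter effects that differ between genes. Probe matches came from the transcripts listed per probe and RefSeq (GRCm38.p6), where 128 of the 129 names were found.

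The genes were chosen by name, and the lists, tests and rule for named genes were written with earlier results of these data known. Named are every called gene, the 5 largest differences in each direction among genes above background, the smallest p of each family, 21 well-known enzymes, genes called between sexes or litters, and from each list the called genes or otherwise the 2 with the smallest p (1 gene of this rule is not reported here). Others (Sult1e1, Cyp2c29, Cyp2c38, Cyp2c50, Cyp2c54, Cyp2c65, Cyp2c66, Cyp2c67, Cyp2c70, Gsta3, Ahr, Nr1i2, Nr1i3, Papss2, Abcb1a and those in the closing section) were chosen after their values were seen. Alternatives concerned background correction, normalization, filter, probes per gene, model, slide, threshold and samples. Pups are the replicates, and delivery mode has 2 litters on each side, which limits every comparison between the groups.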

Additional observations from a re-analysis of the deposited data

Results flagged for a closer look

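Of 101 groups of pups examined for the genes in the text, 8 had a pup whose gap to its nearest neighbour was too wide for the range of its group (Dixon's test at the 95% level), and chance gives about 1 in 20. Cyp4a12a, Cyp2a12 and Cyp2c54 were included after their values were seen, so that this number cannot be read against chance. In CSD pups, Cyp4a12a was at 8.65 in pup 8 against at most 6.27 in the others, and Cyp2c54 was at 7.51 in pup 2 against at most 5.89. Both were well above background on that array only. Also in CSD pups, Cyp4b1 was at 6.71 in pup 1 against at least 7.45, and Txnrd1 at 12.19 in pup 8 against at least 12.57. In VD pups, Cyp1b1 was at 8.25 in pup 6 against at most 6.22, Cyp2a12 at 7.83 in pup 8 against at most 6.98, and Cyp2c54 at 6.02 in pup 4 against at most 5.92, the last not well above background. In the litter of mother 4, Gsta2 was at 10.22 in CSD pup 6 against at least 10.62. The scanner software marked 200 outlier spots on the array of CSD pup 8 and 205 on that of CSD pup 7, against 65 to 107 on the other arrays.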

How the results depend on the processing

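Of 958 recomputed values of 27 single genes, 859 kept their direction and their side of the threshold, 81 lost a call, 7 gained a call and 11 changed sign. The call of Sult1b1 was lost in 21 of 38 settings, that of Abcc1 in 10, of Por in 6 and of Bpnt1 in 5, all with unchanged sign. The number of called enzymes was 0 with normexp offsets 16 and 0, with the processed signal (quantile or 75th percentile), the matrix, males only, litter means, slide 1 or slide 2 alone and without the litter of mother 3, 4 or 5. It was 5 without mother 6 (Cyp2d13, Cyp4f18, Gstt1, Gstt3, Sult1b1) and between 0 and 2 without each pup. All calls numbered 243 and 102 (offsets 16 and 0), 177 and 164 (processed signal), 170 (matrix), 992 (no sex), 0 (males only), 0 (litter means), 11 and 0 (slides 1 and 2), 212, 138, 189 and 2265 (without mothers 3 to 6), 1126 (adjusted p under 0.1) and 145 to 617 (without each pup), against 460. With the replicate block (title numbers, which do not name litters) they numbered 697 and 1 enzyme; deviations of equal numbers correlated between -0.05 and 0.22. The median over the enzymes was 0.061 with the 75th percentile, where that of all genes was 0.044, and -0.024 on slide 2. Between the sexes 1 enzyme was called with the processed signal and 1 with the matrix. Between mothers 3 and 4 it was 0 with the processed signal, 0 in males and 0 to 1 without each pup; between mothers 5 and 6 it was 1 (offset 16), 0 (processed signal), 1 (matrix), 0 (males) and 0 to 2. Signs turned in Cyp2c68 (-0.020) and Cyp2c69 (-0.035) on slide 2, Cyp2e1 in males (0.23), Cyp2f2 without mother 4 (-0.025), Cyp3a13 without mother 3 (0.47), Txnrd1 with the brightest probe (-0.017) and Gsta4 with no sex (-0.012), litter means (-0.036), slide 1 (-0.052), without mother 5 (-0.035) and, without each pup, from -0.00066 to 0.10. The cause was not tested. Signal over background limits the 23 genes seen on some arrays and the 30 seen on none.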

Other observations

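The values below were picked after they were seen, for Fmo5 and Maob as genes and for Sult1c2, Cyp4f14 and Cyp1b1, which belong to the well-known enzymes, as comparisons. Fmo5, a flavin monooxygenase of the phase I list, ran from 7.13 through 8.08 to 8.28 in CSD and from 8.10 through 8.63 to 8.89 in VD pups, with 4 CSD pups below every VD pup (a difference of -0.55, SE 0.13, adjusted p = 0.0537 by limma). Maob, a monoamine oxidase, lay above every VD pup in 7 of 8 CSD pups (a difference of 0.24, SE 0.06, adjusted p = 0.0608 by limma).

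Sult1c2 was higher by 0.70 in the litter of mother 4 than in that of mother 3 (adjusted p = 0.192 by limma). It was higher by 0.69 in the litter of mother 6 than in that of mother 5 (adjusted p = 0.110 by limma), and neither difference passed the test. Between the delivery groups it differed by -0.07. Cyp4f14, a leukotriene and fatty acid hydroxylase, was at 8.95 and 8.74 in the 2 females of mother 3 but at 6.37 and 6.55 in the 2 males of the same litter, while in the litter of mother 6 it was at 8.36, 8.27 and 6.31 in 3 males. Cyp1b1 was well above background on 3 arrays only, those of VD pup 6 (8.25) and of CSD pups 6 and 7 (7.14 and 6.86).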
